A study of Bos taurus with 14 samples.

Results

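Whole cattle blastocysts were compared with cultured skin fibroblasts, as gene expression measured by sequencing of total RNA. The comparison holds 4 of the 14 samples of the series, chosen by their labels: blastocyst pools A and B, each of 10 whole embryos labelled as in vivo, and skin fibroblast lines A and B. Within the series these 4 samples are the controls for bovine embryonic stem cell lines, whose libraries enter no result given here other than an alternative fit. All 4 libraries were prepared with a TruSeq RNA kit. No genotype, treatment, breed, sex or age is given for either group, and the culture conditions in the labels describe the stem cells and not the fibroblasts. A pool mixes every lineage of 10 embryos, and each fibroblast line is a single culture. In such bulk RNA, fewer cells of a type and less RNA per cell cannot be told apart. With 2 samples a group, p-values measure the spread between these pools and these lines.

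The blastocyst is the stage at which the mammalian embryo forms a fluid-filled cavity. Its outer layer, the trophectoderm, is a polarized epithelium that pumps the fluid and later builds the placenta. The inner cell mass holds the pluripotent epiblast, from which the body derives, and the hypoblast, which lines the yolk sac. Skin fibroblasts are mesenchymal cells of the dermis that secrete collagen and other matrix proteins, pull on that matrix with actin fibres, and carry class I histocompatibility molecules like most body cells.

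The deposited values are RPKM, in which reads are scaled to the length of the gene and the size of the library. Counts were not used, since the files give RPKM alone, and the depth in reads is unknown. Summed RPKM came to 401200 and 378315 in blastocyst pools A and B, and to 435754 and 402939 in fibroblast lines A and B. At 1 RPKM or more stood 7558 and 7447 features in the pools, against 10071 and 10023 in the lines. These counts are as deposited and were not repeated after the rescaling described below, which raises the pool values. The files list GAPDH, which nearly all cells use, at 0 in all 4 libraries, so a 0 here means only that a gene is listed at 0.

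A pair of features took most of the summed RPKM of the blastocyst libraries, which is not the same as a share of the reads. ENSBTAG00000043570 had 167412 and 149743 RPKM in the blastocyst pools, against 199.1 and 164.0 RPKM in the fibroblast lines. ENSBTAG00000043567 had 96451 and 92517 RPKM in the pools, against 176.0 and 106.4 RPKM in the lines. The reference gene table gives neither a name. Together they took 65.8% and 64.0% of the RPKM of pools A and B, whereas the top 2 features of lines A and B, EEF1A1_2 and VIM, took 3.36% and 3.26%. Results are therefore given as deposited and again after each library was rescaled without its own top 2 features, which multiplied the remaining values by 2.95 and 2.98 in the pools and by 0.963 and 1.04 in the lines.

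Differences are blastocyst minus fibroblast on the log2(RPKM + 1) scale, which understates the change of genes near or under 1 RPKM. They carry the standard error (SE) of the limma fit, and a gene is called at a Benjamini-Hochberg adjusted p under 0.05 over the 10444 genes that reached 1 RPKM in 2 or more of the 4 libraries. As deposited, 1234 genes (11.8%) were called higher in blastocysts and 7223 (69.2%) lower, and the median gene stood at -1.37. After rescaling, 3255 genes (31.2%) were called higher and 4094 (39.2%) lower, and the median gene stood at -0.21. Every gene called higher as deposited was also called higher after rescaling, and every gene called lower after rescaling was also called lower as deposited, so that 1234 genes rose and 4094 fell under both scalings. Another 385 genes (3.69%) were called lower as deposited and higher after rescaling, and their direction depends on the scaling. With 1 library left out in turn, the count higher under both scalings was 854 to 1024, and the count lower under both fell to 2588 without fibroblast line A and to 2629 without line B. The count higher after rescaling fell to 1749 without fibroblast line A and to 2115 without line B.

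**Figure D1:**
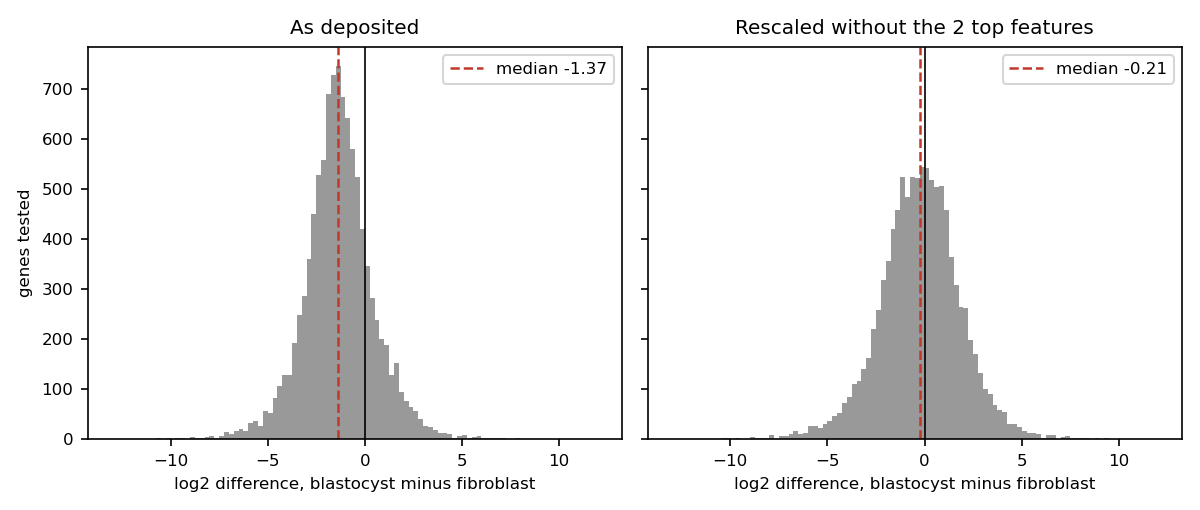
Histograms of the log2(RPKM + 1) difference, blastocyst minus fibroblast, for the 10444 genes tested, as deposited (left) and after rescaling without the 2 top features (right). The dashed line marks the median gene, at -1.37 as deposited and -0.21 after rescaling, and the solid line marks 0.

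A total of 170 genes had at least 1 RPKM in both blastocyst pools and were listed at 0 in both fibroblast lines, 29 of them with at least 10 RPKM. The reverse held for 434 genes, 98 of them with at least 10 RPKM. At 1 RPKM or more in all 4 libraries stood 6349 genes. The cut-offs in these counts were applied to the deposited values alone. Rescaling raises the pool values, so the counts depend on the scaling, and they were not repeated after it. Across the tested genes, which are not independent replicates, the log2 values of the pools correlated with each other at r = 0.979 and those of the lines at r = 0.966, against 0.448 to 0.499 between a pool and a line.

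Members of 35 gene lists are described below, with 656 different genes in all, 555 of them in the files and 396 tested. Members low in every library failed the filter, so counts and medians describe those that passed. A member under 1 RPKM in both libraries of a group passed through the other group alone. Its direction as deposited was then fixed by the filter. Counts and medians stand beside the percentages and medians of all genes given above. Genes listed at 0 in a whole group get no difference in the text, but enter list medians with a fitted difference that depends on the pseudocount. Unless a library is named, the calls given below for single genes stayed with any 1 library left out, and counts of 4 or more list members stayed within 1.5 times. Absence of overlap is stated per gene without its share among all tested genes, so it sets no named gene apart from the others.

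The labels matched the main markers of each group. KRT18, a keratin of simple epithelia, had 414 and 297 RPKM in the blastocyst pools, against 0.037 and 0 RPKM in the fibroblast lines, a difference of 8.43 (SE 0.22, limma adjusted p = 1.06e-05) as deposited and 10.0 (SE 0.23, adjusted p = 1.66e-05) after rescaling. VIM, the intermediate filament protein of mesenchyme, had 0 and 0.11 RPKM in the pools, against 7000 and 5799 RPKM in the lines, a difference of -12.56 (SE 0.19, adjusted p = 9.54e-06) as deposited and -12.43 (SE 0.21, adjusted p = 1.66e-05) after rescaling. Both pools lay on one side of both lines for each gene, with no overlap. The adhesion gene CDH1 was not analysed here.

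The 2 top features, ENSBTAG00000043570 (difference 9.77) and ENSBTAG00000043567 (9.42), stood above every gene with a symbol in the difference between blastocysts and fibroblasts. The ranking below takes genes with a symbol that were called under both scalings and averaged 10 RPKM or more in the higher group. It also requires that both libraries of one group lie above both of the other. In it, KRT18 led the genes higher in blastocysts, followed by ZFP42 and BRN. ZFP42, a zinc finger protein of pluripotent cells, had 185 and 294 RPKM in the pools and was listed at 0 in both lines (limma adjusted p = 2.05e-05). BRN had 173 and 190 RPKM in the pools and was also listed at 0 in both lines (adjusted p = 9.91e-06). Several of the next genes encode proteins of the cell surface. SLC1A1, a glutamate transporter, had 151 and 175 RPKM in the pools, against 0.255 and 0 RPKM in the lines (difference 7.19, SE 0.21, adjusted p = 1.4e-05). MPZL2, an epithelial adhesion protein, had 106 and 141 RPKM in the pools, against 0.051 and 0.099 RPKM in the lines (difference 6.84, SE 0.22, adjusted p = 1.75e-05). The fructose transporter SLC2A5 had 78.9 and 75.7 RPKM in the pools, against 0.04 and 0 RPKM in the lines (difference 6.26, SE 0.19, adjusted p = 1.45e-05). That the lowest pool lay above the highest line in all of these was a condition of the ranking. CKMT1, a mitochondrial creatine kinase, had 80.9 and 54.1 RPKM in the pools, against 0.174 and 0 RPKM in the lines (difference 5.95, SE 0.26, adjusted p = 3.1e-05).

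At the other end, after VIM, stood genes of the matrix. THBS1, thrombospondin, had 0.089 and 0.058 RPKM in the pools, against 1033 and 2847 RPKM in the lines (difference -10.64, SE 0.46, limma adjusted p = 3.06e-05). TNC, tenascin C, had 0.049 and 0.047 RPKM in the pools, against 1267 and 1958 RPKM in the lines (difference -10.55, SE 0.25, adjusted p = 9.91e-06). S100A4, a calcium-binding protein common in fibroblasts, had 3.37 and 1.43 RPKM in the pools, against 3678 and 3589 RPKM in the lines (difference -10.12, SE 0.3, adjusted p = 1.43e-05). The lines were close to each other for S100A4, whereas THBS1 was higher in line B. Here too, absence of overlap was a condition of the ranking. SST, which encodes the peptide hormone somatostatin, was listed at 0 in both pools and had 925 and 707 RPKM in the lines (adjusted p = 9.91e-06).

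**Figure D2:**
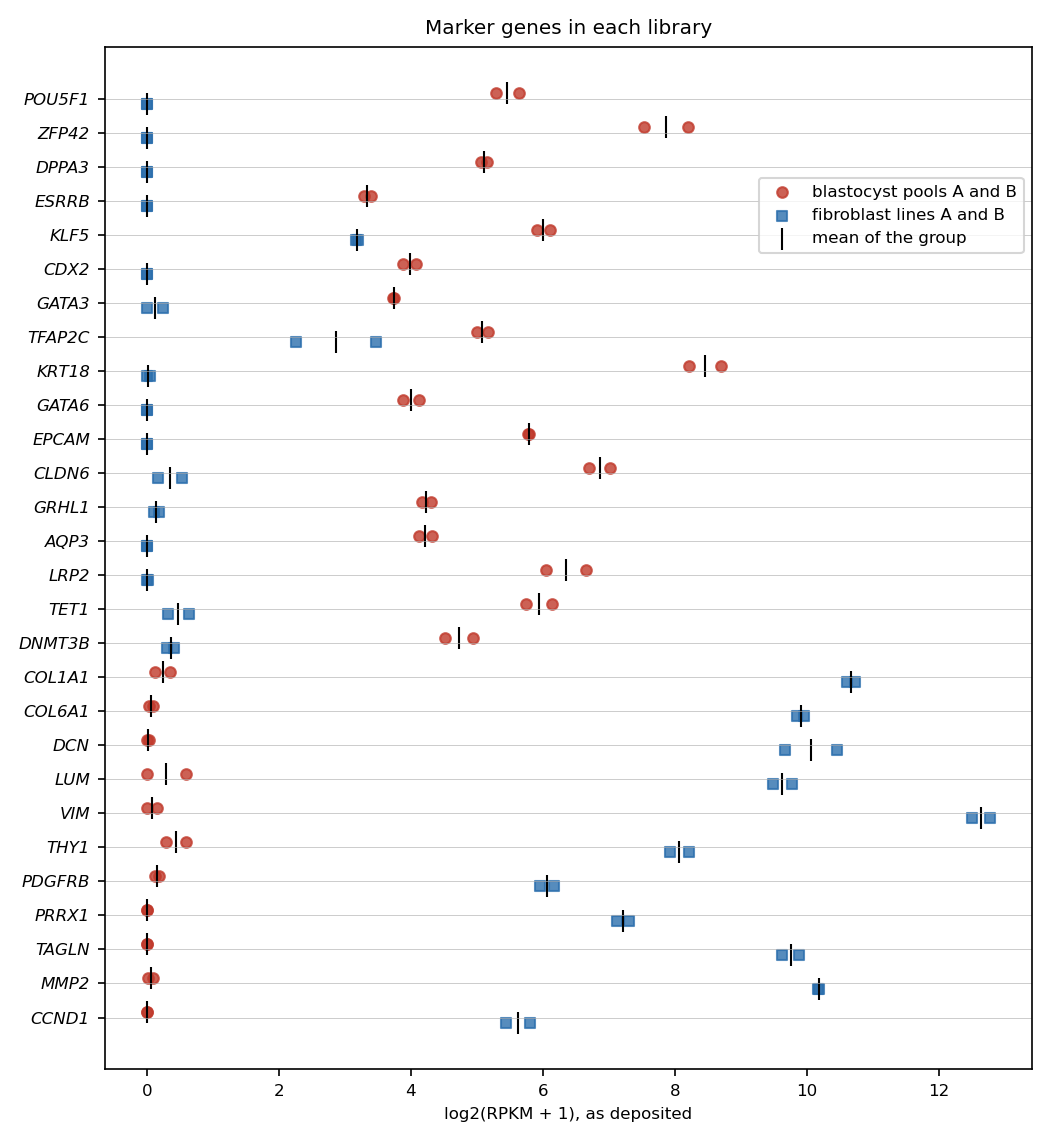
Values of marker genes in each library, as log2(RPKM + 1) as deposited. Circles are blastocyst pools A and B, squares fibroblast lines A and B, and black ticks the mean of each group of 2; the upper genes, POU5F1 to DNMT3B, lie higher in both pools, and the lower ones, COL1A1 to CCND1, lie higher in both lines.

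Genes of pluripotency were high in blastocysts, and of the 11 core members in the files, 10 were listed at 0 in fibroblast line A and 9 in line B. Of the 6 tested, 5 rose as deposited and 6 after rescaling, with a median difference of 2.96 and 4.39. Only SOX2 reached 1 RPKM in a line, so the filter fixed the direction of the others. POU5F1, the OCT4 transcription factor, had 48.6 and 38.2 RPKM in the pools and was listed at 0 in both lines (limma adjusted p = 2.84e-05 as deposited and 3.31e-05 after rescaling). DPPA2, a chromatin protein of early embryos, had 10.4 and 11.4 RPKM in the pools, with both lines at 0 (adjusted p = 4.36e-05). PRDM14, a regulator of naive pluripotency and germ cells, had 10.3 and 9.55 RPKM in the pools, against 0 and 0.03 RPKM in the lines (difference 3.43, SE 0.19, adjusted p = 4.62e-05). These genes separated the groups without overlap. SALL4, a zinc finger factor, had 4.42 and 4.77 RPKM in the pools, with both lines at 0 (adjusted p = 6.5e-05). SOX2, a partner of OCT4, had 2.12 and 3.18 RPKM in the pools, against 0.257 and 1.81 RPKM in the lines. Its difference of 0.94 (SE 0.4) missed the threshold as deposited (adjusted p = 0.071) and passed it after rescaling (2.20, SE 0.45, adjusted p = 0.00641), but not without either pool or without line A (adjusted p up to 0.112). NANOG, a further core factor, had 0.549 and 4.57 RPKM in the pools and was listed at 0 in both lines, and it failed the filter on low values.

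The naive epiblast list, genes of the early inner cell mass, had 10 members tested, of 12 in the files, of which 9 rose as deposited and 10 after rescaling (median 2.75 and 4.23). DPPA3, a maternal factor that protects methylation in the early embryo, had 34.6 and 32.3 RPKM in the pools and both lines at 0 (limma adjusted p = 2.67e-05). ESRRB, a nuclear receptor, had 9.54 and 8.78 RPKM in the pools and both lines at 0 (adjusted p = 4.69e-05). KLF5, a Kruppel-like factor of inner cell mass and trophectoderm, had 59.4 and 67.8 RPKM in the pools, against 8.18 and 7.99 RPKM in the lines (difference 2.83, SE 0.18, adjusted p = 6.05e-05). KLF5 thus stood apart from ESRRB and DPPA3 in being clearly present in fibroblasts. KLF4, another Kruppel-like factor, had 37.5 and 36.7 RPKM in the pools, against 57.9 and 42.0 RPKM in the lines. Its difference was -0.40 (SE 0.21, adjusted p = 0.128) as deposited and 1.14 (SE 0.2, adjusted p = 0.00321) after rescaling, so its direction turned with the scaling.

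Trophectoderm genes also rose as a group, with exceptions. Of 14 tested, of 18 in the files, 9 were higher and 1 lower as deposited, and 11 were higher and 1 lower after rescaling (median 1.67 and 3.03). CDX2, a transcription factor of the trophectoderm, had 13.8 and 15.9 RPKM in the pools and both lines at 0 (limma adjusted p = 4.05e-05). GATA3, which acts beside it, had 12.3 and 12.4 RPKM in the pools, against 0.188 and 0 RPKM in the lines (difference 3.62, SE 0.21, adjusted p = 4.9e-05). VGLL1, a cofactor of TEAD proteins, had 4.54 and 4.72 RPKM in the pools and both lines at 0 (adjusted p = 6.37e-05). None of these genes had overlapping groups. KRT8, the partner of KRT18, had 473 and 306 RPKM in the pools, against 7.99 and 0.306 RPKM in the lines (difference 6.80, SE 0.86, adjusted p = 0.000598), with line A well above line B. TFAP2C, an AP-2 factor of the trophoblast, had 34.9 and 31.0 RPKM in the pools, against 3.795 and 10.1 RPKM in the lines (difference 2.22, SE 0.4, adjusted p = 0.00278), a call lost as deposited without either pool (adjusted p up to 0.0713). Its relative TFAP2A was the member that fell, with 0.228 and 0.425 RPKM in the pools, against 12.0 and 21.3 RPKM in the lines (difference -3.69, SE 0.31, adjusted p = 0.000138). TEAD4, a factor at the start of the trophectoderm lineage, had 8.40 and 6.99 RPKM in the pools, against 7.89 and 8.27 RPKM in the lines, with overlapping groups (difference -0.07, SE 0.2, adjusted p = 0.771). After rescaling its difference was 1.39 (SE 0.22, adjusted p = 0.00253), a call lost without line A (adjusted p = 0.0517).

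Of the secreted proteins of the ruminant trophoblast, 9 of 19 were in the files and 3 passed the filter, of which 2 rose under both scalings. IFNT, interferon tau, the signal by which a ruminant conceptus announces itself to the mother, had 3.16 and 2.95 RPKM in the pools and both lines at 0 (limma adjusted p = 8.79e-05). PAG2, a pregnancy-associated glycoprotein, had 4.02 and 14.5 RPKM in the pools and both lines at 0 (adjusted p = 0.0018). IFNT was even between the pools, whereas PAG2 was higher in pool B, and its call was lost without either fibroblast line (adjusted p up to 0.098). The count of the list was 1 as deposited without either line.

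The hypoblast list split. Of 10 members tested, of 18 in the files, 2 rose and 7 fell under both scalings (median -3.02 as deposited and -2.60 after rescaling). The 2 that rose were transcription factors. GATA6, the earliest factor of the hypoblast, had 13.8 and 16.5 RPKM in the pools and both lines at 0 (limma adjusted p = 4.21e-05), and HNF4A, a nuclear receptor of visceral endoderm, had 1.82 and 1.65 RPKM in the pools and both lines at 0 (adjusted p = 0.000175). The members that fell are secreted proteins, several of which fibroblasts are also known to make. COL4A1, a basement membrane collagen, had 2.41 and 1.94 RPKM in the pools, against 35.7 and 58.0 RPKM in the lines (difference -3.88, SE 0.28, adjusted p = 8.4e-05). NID2, a basement membrane linker, had 2.11 and 1.41 RPKM in the pools, against 28.6 and 42.6 RPKM in the lines (difference -3.71, SE 0.27, adjusted p = 8.75e-05). APOE, an apolipoprotein, had 0 and 0.088 RPKM in the pools, against 7.63 and 5.48 RPKM in the lines (difference -2.84, SE 0.22, adjusted p = 9.85e-05). All 3 were higher in both lines than in either pool.

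Epithelial genes rose almost throughout. Of 14 junction genes tested, of 17 in the files, 13 rose under both scalings, and the median stood at 3.34 as deposited and 4.85 after rescaling. EPCAM, an epithelial adhesion molecule, had 54.0 and 54.6 RPKM in the pools and both lines at 0 (limma adjusted p = 2.06e-05). CLDN6, a tight junction claudin of embryonic epithelia, had 103 and 129 RPKM in the pools, against 0.449 and 0.124 RPKM in the lines (difference 6.51, SE 0.23, adjusted p = 2.23e-05). F11R, a junctional adhesion molecule, had 36.0 and 35.7 RPKM in the pools, against 0.1 and 0.058 RPKM in the lines (difference 5.10, SE 0.2, adjusted p = 2.63e-05). Both pools were high and both lines near 0 for all 3 genes. JUP, plakoglobin, was the exception, with 18.02 and 14.7 RPKM in the pools, against 50.01 and 32.5 RPKM in the lines. It was called lower as deposited (difference -1.26, SE 0.26, adjusted p = 0.00476), a call lost without pool B or line A (adjusted p up to 0.0722), and not called after rescaling (0.25, SE 0.24, adjusted p = 0.379).

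Of 14 epithelial regulators and polarity genes, 13 rose under both scalings (median 2.33 and 3.71). ESRP1, a splicing regulator of epithelia, had 22.5 and 24.0 RPKM in the pools, against 0.241 and 0 RPKM in the lines (difference 4.44, SE 0.22, limma adjusted p = 3.91e-05). GRHL1, a grainyhead-like transcription factor, had 18.7 and 17.0 RPKM in the pools, against 0.138 and 0.074 RPKM in the lines (difference 4.09, SE 0.21, adjusted p = 3.91e-05). PRKCZ, an atypical protein kinase C of the polarity complex, had 9.12 and 10.2 RPKM in the pools, against 0.024 and 0.047 RPKM in the lines (difference 3.36, SE 0.19, adjusted p = 4.8e-05). No pool overlapped a line in these genes. The other member, CDH3, had 0.689 and 0.852 RPKM in the pools, against 3.86 and 1.76 RPKM in the lines, and was called lower as deposited (-1.05, SE 0.29, adjusted p = 0.017) but not without either pool (adjusted p up to 0.15) nor after rescaling (-0.16, SE 0.31, adjusted p = 0.668).

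Proteins by which the trophectoderm takes up nutrients and moves water were well represented in embryos. LRP2, the endocytic receptor megalin, had 65.3 and 99.7 RPKM in the pools, against 0.015 and 0 RPKM in the lines (difference 6.34, SE 0.26, limma adjusted p = 2.86e-05). SLC34A2, a sodium phosphate cotransporter, had 72.3 and 74.8 RPKM in the pools and both lines at 0 (adjusted p = 1.5e-05). ENPEP, a brush border aminopeptidase, had 65.3 and 70.1 RPKM in the pools, against 0 and 0.014 RPKM in the lines (difference 6.09, SE 0.19, adjusted p = 1.71e-05). All 3 were high in both pools and at or near 0 in both lines. Of the 6 members of the apical uptake list tested, 4 rose and 1 fell as deposited, and 5 rose after rescaling (median 3.50 and 5.05). The member that fell as deposited, the membrane linker EZR, had 69.3 and 71.3 RPKM in the pools, against 167 and 154 RPKM in the lines (-1.18, SE 0.17, adjusted p = 0.00117), and was not called after rescaling (0.38, SE 0.16, adjusted p = 0.0857).

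Of 8 blastocoel transport genes tested, 4 rose and 3 fell as deposited, and 5 rose and 2 fell after rescaling (median 1.07 and 2.53). AQP3, a water and glycerol channel, had 16.5 and 18.9 RPKM in the pools and both lines at 0 (limma adjusted p = 3.75e-05). The glucose transporter SLC2A1 had 27.4 and 28.0 RPKM in the pools, against 5.45 and 5.24 RPKM in the lines (difference 2.18, SE 0.18, adjusted p = 0.000125). The members that fell under both scalings carry amino acids. SLC3A2, the heavy chain of amino acid exchangers, had 6.11 and 4.13 RPKM in the pools, against 117 and 84.6 RPKM in the lines (difference -4.05, SE 0.26, adjusted p = 6.17e-05). SLC1A5, a neutral amino acid transporter, had 4.19 and 2.87 RPKM in the pools, against 60.7 and 57.0 RPKM in the lines (difference -3.74, SE 0.21, adjusted p = 4.9e-05). Thus transporters of glucose and water were high in both pools, and these amino acid carriers high in both lines.

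Egg and germline genes were found in the embryo pools, at low levels as deposited. All 4 tested members of the oocyte list, of 15 in the files, were higher in blastocysts, and all were listed at 0 in both lines. No member of the oocyte or germline list reached 1 RPKM in a fibroblast line. Those tested thus passed the filter through the pools alone, which fixed their direction. ZP2, a protein of the zona pellucida, had 7.30 and 2.72 RPKM in pools A and B (limma adjusted p = 0.00133), and BTG4, which drives removal of maternal mRNA, had 9.68 and 2.62 RPKM (adjusted p = 0.0031). BMP15, a growth factor of the oocyte, had 7.87 and 2.28 RPKM in the pools (adjusted p = 0.00312). After rescaling, ZP2 had 21.5 and 8.10 in pools A and B, BTG4 28.6 and 7.81, and BMP15 23.2 and 6.81. All 4 were higher in pool A, and none of the 4 calls held without either fibroblast line (adjusted p up to 0.128). The 3 germline genes tested, of 17 in the files, rose under both scalings: MAEL, which protects germ cells from transposons, had 2.66 and 2.44 RPKM in the pools, against 0.032 and 0 RPKM in the lines (difference 1.80, SE 0.14, adjusted p = 0.000114).

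Matrix genes fell almost throughout. Of 24 fibril collagen and matrix genes tested, 23 fell as deposited and 22 under both scalings (median -6.99 as deposited and -6.76 after rescaling). COL1A1, the main chain of type I collagen, had 0.089 and 0.28 RPKM in the pools, against 1564 and 1706 RPKM in the lines (difference -10.44, SE 0.18, limma adjusted p = 9.54e-06). COL6A1, of the microfibrillar type VI collagen, had 0.026 and 0.063 RPKM in the pools, against 991 and 926 RPKM in the lines (difference -9.84, SE 0.17, adjusted p = 9.54e-06). COL1A2, the second chain of type I collagen, had 2.21 and 1.78 RPKM in the pools, against 1348 and 1667 RPKM in the lines (difference -8.97, SE 0.2, adjusted p = 9.91e-06). The lines made large amounts of each, and the pools at most a few RPKM. FN1, fibronectin, did not follow them: it had 507 and 482 RPKM in the pools, against 348 and 876 RPKM in the lines. The groups overlapped as deposited (difference -0.16, SE 0.44, adjusted p = 0.748), and after rescaling FN1 was called higher (1.40, SE 0.46, adjusted p = 0.0368), a call lost without either pool or line A (adjusted p up to 0.242). SPARC, a collagen-binding matrix protein, fell but was still abundant in embryos, with 81.5 and 78.4 RPKM in the pools, against 1162 and 1490 RPKM in the lines (difference -4.02, SE 0.22, adjusted p = 4.45e-05).

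All 8 small leucine-rich proteoglycans tested fell as deposited and 7 under both scalings (median -7.43 and -7.40). No member of this list reached 1 RPKM in a pool. Those tested passed the filter through the lines alone, which fixed their direction as deposited. DCN, decorin, which binds collagen fibrils, had 0.024 and 0 RPKM in the pools, against 1400 and 814 RPKM in the lines (difference -10.04, SE 0.28, limma adjusted p = 1.16e-05). LUM, lumican, had 0 and 0.508 RPKM in the pools, against 715 and 874 RPKM in the lines (difference -9.33, SE 0.26, adjusted p = 1.06e-05). Of 18 genes of collagen processing and matrix remodelling, 17 fell and 1 rose under both scalings (median -5.48 and -5.09). MMP2, a gelatinase, had 0.071 and 0.017 RPKM in the pools, against 1153 and 1168 RPKM in the lines (difference -10.12, SE 0.17, adjusted p = 9.54e-06). SERPINH1, the collagen chaperone, had 1.25 and 0.942 RPKM in the pools, against 372 and 470 RPKM in the lines (difference -7.65, SE 0.2, adjusted p = 1.06e-05). Every pool lay below every line in these genes. The member that rose was MMP3, a stromelysin, with 2.02 and 4.20 RPKM in the pools, against 0.426 and 0.231 RPKM in the lines (difference 1.58, SE 0.29, adjusted p = 0.00279), a call lost without either line (adjusted p up to 0.102).

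All 23 mesenchymal identity genes tested fell as deposited and 20 under both scalings (median -4.61 and -4.57). PRRX1, a transcription factor of mesenchyme, was listed at 0 in both pools and had 138 and 157 RPKM in the lines (limma adjusted p = 1.06e-05). THY1, a surface marker of fibroblasts, had 0.218 and 0.504 RPKM in the pools, against 297 and 241 RPKM in the lines (difference -7.63, SE 0.21, adjusted p = 1.13e-05). PDGFRB, a growth factor receptor of stromal cells, had 0.141 and 0.092 RPKM in the pools, against 61.5 and 71.1 RPKM in the lines (difference -5.91, SE 0.2, adjusted p = 2.06e-05). No pool came near a line in these 3 genes. Its relative PDGFRA, which also marks hypoblast in several mammals, was present in both groups, with 14.2 and 20.5 RPKM in the pools, against 49.3 and 65.8 RPKM in the lines. PDGFRA was lower as deposited (-1.68, SE 0.25, adjusted p = 0.00126), but not without line B (adjusted p = 0.0561), and was not called after rescaling (-0.17, SE 0.28, adjusted p = 0.613).

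All 14 contractile genes tested fell as deposited and 11 under both scalings (median -5.29 and -4.37). TAGLN, transgelin, was listed at 0 in both pools and had 787 and 946 RPKM in the lines (limma adjusted p = 9.91e-06). ACTA2, smooth muscle actin, had 1.35 and 1.66 RPKM in the pools, against 1059 and 1392 RPKM in the lines (difference -8.92, SE 0.21, adjusted p = 9.91e-06). FLNA, filamin A, which crosslinks actin, had 2.11 and 1.24 RPKM in the pools, against 289 and 363 RPKM in the lines (difference -6.95, SE 0.24, adjusted p = 2.11e-05). In each, the lines exceeded the pools many times over.

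Signalling genes of fibroblast culture were low in embryos. Of 14 TGF-beta and YAP response genes tested, 12 fell as deposited and 11 under both scalings (median -3.96 and -3.40). The count lower as deposited was 8 without pool A and 9 without pool B. CYR61, a matricellular target of YAP, had 4.83 and 4.58 RPKM in the pools, against 233 and 343 RPKM in the lines (difference -5.64, SE 0.23, limma adjusted p = 2.88e-05). AXL, a receptor tyrosine kinase, had 0.035 and 0 RPKM in the pools, against 109 and 109 RPKM in the lines (difference -6.75, SE 0.18, adjusted p = 1.06e-05). The pools were uniformly low in these genes and the lines uniformly high.

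All 14 IGF, WNT and BMP modulators tested fell under both scalings (median -4.55 and -4.06), and the count after rescaling was 8 without pool A and 10 without pool B. IGFBP4, an IGF-binding protein, had 0.177 and 0.148 RPKM in the pools, against 358 and 335 RPKM in the lines (difference -8.22, SE 0.17, limma adjusted p = 9.91e-06). GREM1, a secreted BMP antagonist, had 0.189 and 0 RPKM in the pools, against 104 and 254 RPKM in the lines (difference -7.23, SE 0.42, adjusted p = 5.23e-05). IGFBP4 was even between the lines and GREM1 higher in line B. Of the HOX genes, which record position along the body, 35 were in the files and only HOXA2, HOXB9 and HOXC9 passed the filter. HOXB9 had 1.91 and 2.76 RPKM in the pools, against 0.122 and 0 RPKM in the lines (difference 1.64, SE 0.18, adjusted p = 0.00037), and the other 2 were lower in blastocysts, after rescaling with calls lost without 1 library (for HOXA2 pool B or either line, adjusted p up to 0.0989, and for HOXC9 either pool, adjusted p up to 0.134).

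**Figure D3:**
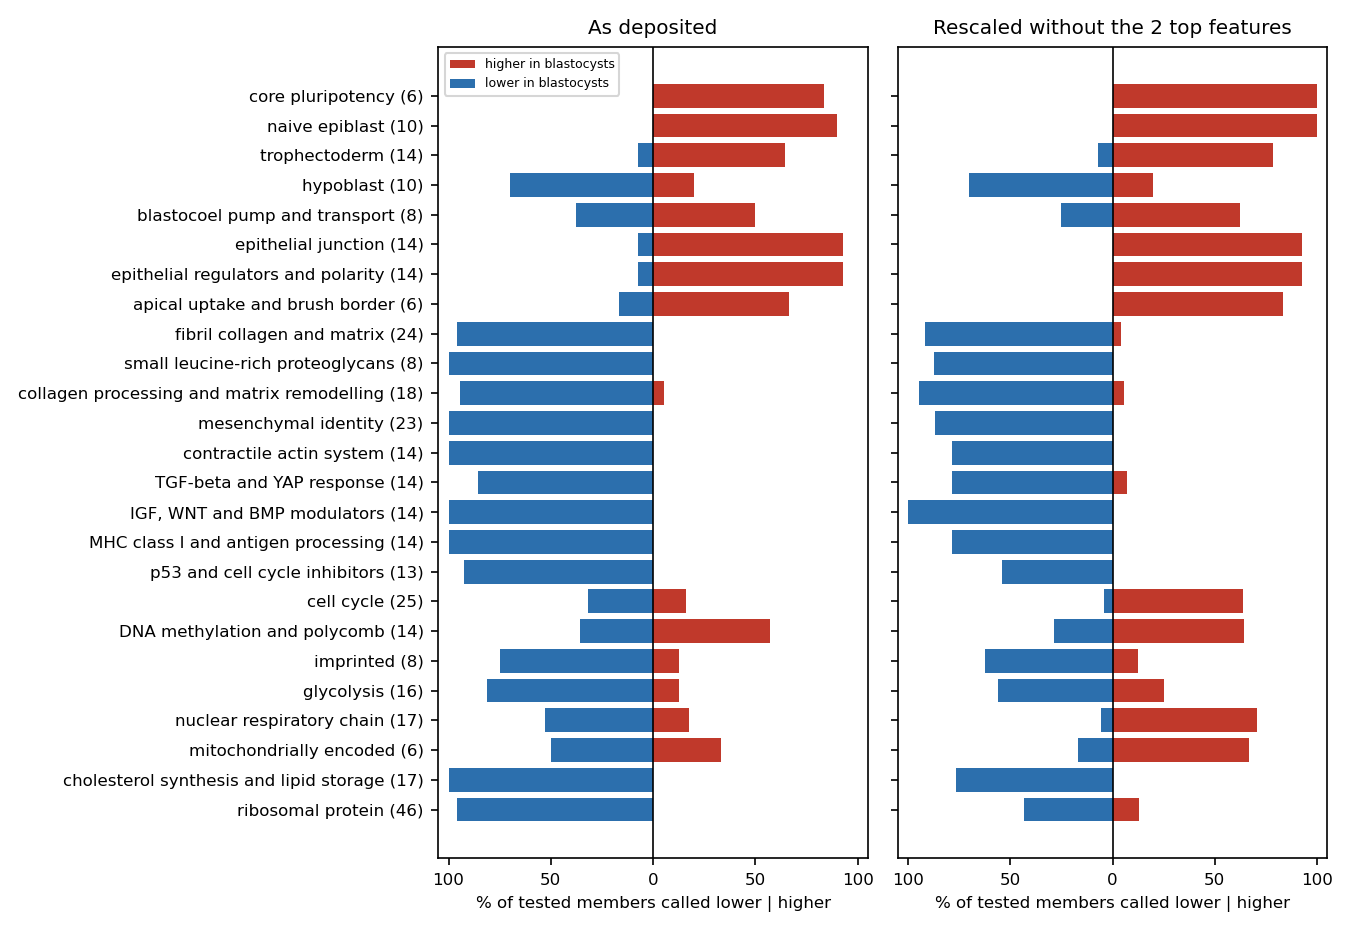
Share of the tested members of each list, in percent, called higher (right of 0) or lower (left of 0) in blastocysts, as deposited (left panel) and after rescaling (right panel), with the number tested in parentheses. Epithelial lists stay on the right and matrix and mesenchymal lists on the left in both panels, whereas the bars of the cell cycle and nuclear respiratory chain lists lie mainly to the left as deposited and mainly to the right after rescaling.

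All 14 genes of class I histocompatibility and antigen processing fell as deposited and 11 under both scalings (median -3.34 and -2.16). B2M, the light chain of class I molecules, had 63.4 and 77.4 RPKM in the pools, against 888.2 and 696.5 RPKM in the lines (difference -3.47, SE 0.23, limma adjusted p = 6.5e-05). TAP2, a subunit of the peptide transporter, had 0.157 and 0.191 RPKM in the pools, against 15.4 and 22.2 RPKM in the lines (difference -4.06, SE 0.25, adjusted p = 5.79e-05). PSMB8, a subunit of the immunoproteasome, had 0.339 and 0 RPKM in the pools, against 22.3 and 28.2 RPKM in the lines (difference -4.50, SE 0.25, adjusted p = 4.77e-05). B2M was thus lower but well represented in embryos, while TAP2 and PSMB8 stayed under 1 RPKM there.

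Of 13 p53 target and cell cycle inhibitor genes, 12 fell as deposited and 7 under both scalings (median -2.29 and -1.83). CDKN1A, the p21 inhibitor, had 0.713 and 0.13 RPKM in the pools, against 62.5 and 51.1 RPKM in the lines (difference -5.37, SE 0.27, limma adjusted p = 3.96e-05). CDKN2A, which encodes the p16 inhibitor, was listed at 0 in both pools and had 3.86 and 3.93 RPKM in the lines (adjusted p = 6.94e-05). BAX, a promoter of apoptosis, had 3.30 and 2.39 RPKM in the pools, against 74.1 and 58.5 RPKM in the lines (difference -4.13, SE 0.22, adjusted p = 4.45e-05). The groups were far apart in all of them.

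The cell cycle list depended on the scaling. Of 25 genes tested, 4 rose and 8 fell as deposited, and 16 rose and 1 fell after rescaling (median -0.31 and 1.13, beside -1.37 and -0.21 for all genes). Only 1 member was called lower as deposited and higher after rescaling. Leaving out 1 library left 2 or 3 higher as deposited, with 2 without pool B or line A, and 4 lower without line B. After rescaling it left 9 without pool A, 9 without pool B, 6 without line A and 10 without line B. AURKA, a mitotic kinase, rose under both scalings, with 30.7 and 26.4 RPKM in the pools, against 8.98 and 11.5 RPKM in the lines (difference 1.40, SE 0.21, limma adjusted p = 0.00115, and 2.93 after rescaling, SE 0.23, adjusted p = 0.000198). CCNB1, cyclin B1, had 75.9 and 73.4 RPKM in the pools, against 28.6 and 39.99 RPKM in the lines (difference 1.12, SE 0.22, adjusted p = 0.00369). Both pools exceeded both lines in these genes. CCND1, cyclin D1, went the other way, being listed at 0 in both pools with 42.7 and 55.1 RPKM in the lines (adjusted p = 2.67e-05). PLK1, a mitotic kinase, had 17.7 and 15.9 RPKM in the pools, against 11.5 and 14.1 RPKM in the lines, and was called only after rescaling (0.37, SE 0.2, adjusted p = 0.125 as deposited, and 1.89, SE 0.22, adjusted p = 0.000742 after rescaling).

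Enzymes that write and remove DNA methylation differed in both directions. Of 14 DNA methylation and polycomb genes tested, 8 rose and 5 fell as deposited, and 9 rose and 4 fell after rescaling (median 0.88 and 2.35). The count higher as deposited was 5 without either pool or line A, and the count lower after rescaling was 2 without pool B and 1 without either line. TET1, which oxidizes methylcytosine, had 52.6 and 69.3 RPKM in the pools, against 0.245 and 0.564 RPKM in the lines (difference 5.46, SE 0.24, limma adjusted p = 3.1e-05). DNMT3B, a de novo methyltransferase, had 29.7 and 21.9 RPKM in the pools, against 0.242 and 0.331 RPKM in the lines (difference 4.37, SE 0.24, adjusted p = 4.45e-05). DNMT3A, the other de novo enzyme, had 43.6 and 42.0 RPKM in the pools, against 1.88 and 2.95 RPKM in the lines (difference 3.70, SE 0.22, adjusted p = 5.67e-05). All 3 were well above the lines in each pool. JARID2, a cofactor of polycomb complex PRC2, had 17.9 and 16.5 RPKM in the pools, against 0.981 and 1.22 RPKM in the lines (difference 3.12, SE 0.21, adjusted p = 6.82e-05). PHF19, another PRC2 cofactor, was on the opposite side, with 0.227 and 0.155 RPKM in the pools, against 10.2 and 13.98 RPKM in the lines (difference -3.45, SE 0.23, adjusted p = 7.02e-05). DNMT1, the maintenance methyltransferase, had 2.49 and 3.27 RPKM in the pools, against 13.7 and 15.04 RPKM in the lines (difference -1.99, SE 0.21, adjusted p = 0.000325). After rescaling DNMT1 stood at -0.70 (SE 0.25, adjusted p = 0.047), a call lost with any 1 library left out (adjusted p up to 0.227).

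Of 8 imprinted genes tested, 6 fell and 1 rose as deposited, and 5 fell and 1 rose after rescaling (median -2.05 and -1.48). SGCE, sarcoglycan epsilon, was listed at 0 in both pools and had 50.8 and 42.0 RPKM in the lines (limma adjusted p = 2.55e-05). IGF2R, the receptor that clears IGF2, had 1.05 and 0.855 RPKM in the pools, against 27.4 and 21.6 RPKM in the lines (difference -3.70, SE 0.22, adjusted p = 5.52e-05). Both genes separated the groups. The member that rose, NDN, had 4.85 and 8.75 RPKM in the pools, against 1.84 and 0.418 RPKM in the lines (difference 1.91, SE 0.41, adjusted p = 0.00609), a call lost without pool B or line B (adjusted p up to 0.106).

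Glycolysis genes were mostly lower in embryos. Of 16 tested, 13 fell and 2 rose as deposited, and 9 fell and 4 rose after rescaling (median -2.43 and -1.01). PFKP, a phosphofructokinase, was listed at 0 in both pools and had 46.9 and 31.6 RPKM in the lines (limma adjusted p = 3.7e-05). TPI1, triosephosphate isomerase, had 17.1 and 10.7 RPKM in the pools, against 299 and 251 RPKM in the lines (difference -4.24, SE 0.26, adjusted p = 5.73e-05). LDHA, the muscle-type lactate dehydrogenase, had 13.3 and 15.3 RPKM in the pools, against 315 and 187 RPKM in the lines (difference -4.0, SE 0.28, adjusted p = 8e-05). In these 3 both lines exceeded both pools. Hexokinases split: HK1 had 4.65 and 3.51 RPKM in the pools, against 43.1 and 39.99 RPKM in the lines (difference -3.08, SE 0.2, adjusted p = 6.58e-05). HK2 had 19.2 and 27.8 RPKM in the pools, against 3.32 and 7.39 RPKM in the lines (difference 2.00, SE 0.37, adjusted p = 0.00297), a call lost as deposited without pool B or line A (adjusted p up to 0.0741), which left no glycolysis gene higher as deposited. After rescaling, 2 were higher without either pool or line A.

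The nuclear respiratory chain list, which includes ATP synthase, turned with the scaling. Of 17 genes tested, 3 rose and 9 fell as deposited, and 12 rose and 1 fell after rescaling (median -0.57 and 0.99, beside -1.37 and -0.21 for all genes). Of these, 4 were called lower as deposited and higher after rescaling. Without either fibroblast line, none rose as deposited and 5 after rescaling, and without pool B 1 rose as deposited. ATP5B, the catalytic subunit of ATP synthase, had 474 and 517 RPKM in the pools, against 326 and 276 RPKM in the lines (difference 0.72, SE 0.21, limma adjusted p = 0.0201, and 2.29 after rescaling, SE 0.18, adjusted p = 0.000215). The call as deposited was lost with any 1 library left out (adjusted p up to 0.11). SDHA, of succinate dehydrogenase, had 31.2 and 22.1 RPKM in the pools, against 164 and 102 RPKM in the lines (difference -2.26, SE 0.29, adjusted p = 0.00069). After rescaling SDHA was not called (-0.73, SE 0.27, adjusted p = 0.0553). Of 6 mitochondrially encoded genes, 2 rose and 3 fell as deposited, and 4 rose and 1 fell after rescaling. Leaving out 1 library left 0 or 1 higher and 1 lower as deposited, and after rescaling none was higher without line A and 1 without line B. ND5, a subunit of complex I, had 2094 and 2612 RPKM in the pools, against 1200 and 1031 RPKM in the lines (difference 1.07, SE 0.28, adjusted p = 0.0124), a call lost as deposited with any 1 library left out (adjusted p up to 0.127) and after rescaling without either line (adjusted p up to 0.0671).

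Ribosomal protein genes were lower as deposited in 44 of 46 tested, with none higher, and after rescaling 20 were lower and 6 higher (median -2.10 and -0.54, beside -1.37 and -0.21 for all genes). As deposited 27 were lower without line A. After rescaling the count lower was 12 without pool B and 1 without either line. The count higher was 3 without pool A and 0 without either line. RPLP0, of the ribosomal stalk, had 135 and 96.3 RPKM in the pools, against 2041 and 1769 RPKM in the lines (difference -4.05, SE 0.25, limma adjusted p = 6.09e-05, and -2.49 after rescaling, SE 0.23, adjusted p = 0.000327). RPL38 had 412 and 251 RPKM in the pools, against 365 and 302 RPKM in the lines, with overlapping groups (-0.04, SE 0.3, adjusted p = 0.896), and was called higher after rescaling (1.52, SE 0.27, adjusted p = 0.00398), a call lost without either line (adjusted p up to 0.117). Ribosomal protein genes have many processed copies, and how reads were shared among them is not given in the sources used here. The same limit applies to EEF1A1_2, a numbered copy of the elongation factor gene, which had 929 and 1110 RPKM in the pools, against 7649 and 7349 RPKM in the lines (difference -2.88, SE 0.29, adjusted p = 0.000257). After rescaling EEF1A1_2 was lower by less (-1.32, SE 0.24, adjusted p = 0.00395), and that call was lost without either line (adjusted p up to 0.188).

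**Figure D4:**
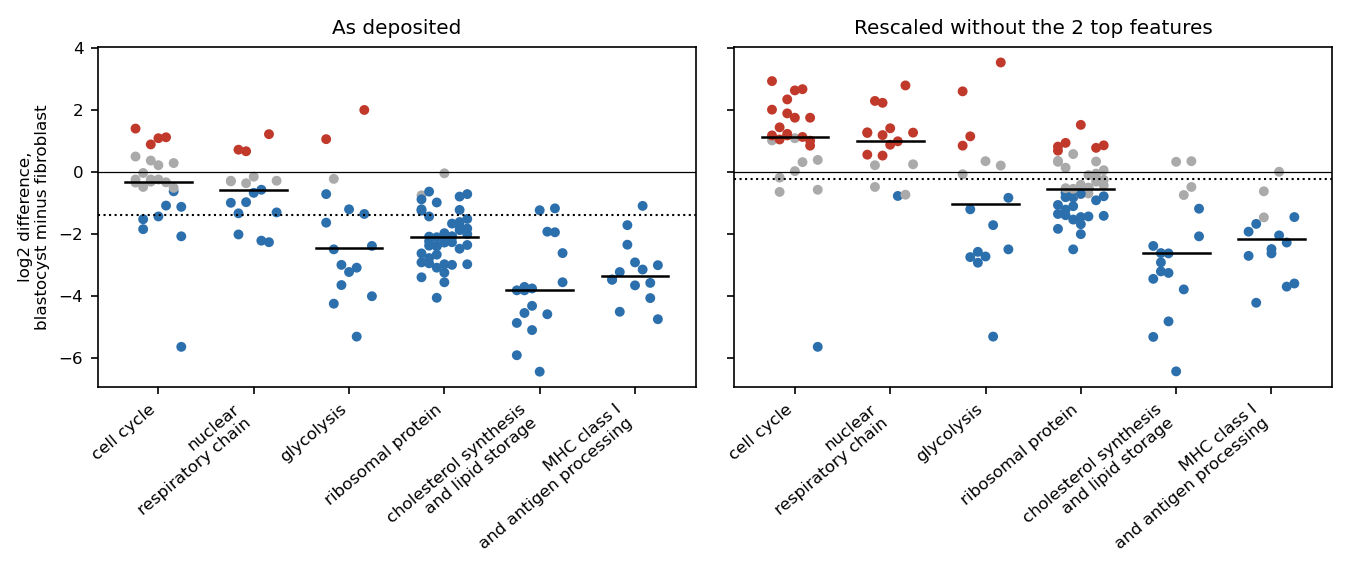
Difference in log2(RPKM + 1), blastocyst minus fibroblast, of each tested member of 6 lists, as deposited (left) and after rescaling (right). Red points were called higher, blue points lower and grey points not called; black bars are list medians and the dotted line is the median of all genes. The cell cycle median moves from below 0 (-0.31) to above it (1.13), while the cholesterol median stays below 0 (-3.81 and -2.62).

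Cholesterol synthesis and lipid storage genes were lower in all 17 tested as deposited and in 13 under both scalings (median -3.81 and -2.62). CYP51A1, a demethylase of sterol synthesis, had 0.336 and 0.347 RPKM in the pools, against 61.4 and 101 RPKM in the lines (difference -5.90, SE 0.28, limma adjusted p = 3.43e-05). HMGCS1, which makes HMG-CoA, had 4.91 and 7.10 RPKM in the pools, against 147 and 274 RPKM in the lines (difference -4.86, SE 0.34, adjusted p = 7.85e-05). SREBF2, the transcription factor that drives this pathway, had 1.35 and 1.69 RPKM in the pools, against 33.1 and 32.6 RPKM in the lines (difference -3.75, SE 0.2, adjusted p = 4.21e-05). The pathway's enzymes named here and its regulator were lower in each pool than in either line. The lipid droplet protein PLIN2 had 19.7 and 18.1 RPKM in the pools, against 48.6 and 39.4 RPKM in the lines, a call as deposited (-1.17, SE 0.19, adjusted p = 0.00179) that was absent after rescaling (0.35, SE 0.18, adjusted p = 0.136).

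Markers of other cell types were low in the pools, with 1 exception. Endothelial markers summed to 0.628 and 0.506 RPKM in the pools, against 5.28 and 0.99 RPKM in the lines, and cumulus, oviduct and uterine markers to 0.695 and 0.515 RPKM in the pools, against 6.94 and 0.868 RPKM in the lines. No member of these lists passed the filter, and 2 of the 8 endothelial and 1 of the 7 cumulus, oviduct and uterine markers in the files were listed at 0 in all 4 libraries. Blood and immune markers summed to 3.01 and 3.20 RPKM in the pools, against 1.42 and 1.86 RPKM in the lines, with 4 of the 9 in the files listed at 0 in all 4. Melanocyte and Schwann markers summed to 4.74 and 3.55 RPKM in the pools, against 5.03 and 6.26 RPKM in the lines, and adipocyte and muscle markers to 0.385 and 0.122 RPKM in the pools, against 22.4 and 11.2 RPKM in the lines, mostly from the fatty acid binding protein FABP4 (16.9 and 6.22 RPKM in the lines, 0 in both pools). Of these, 3 of 8 and 1 of 8 were listed at 0 in all 4 libraries. The exception was the keratinocyte list of 11 genes, which summed to 38.2 and 37.2 RPKM in the pools, against 28.4 and 2.19 RPKM in the lines. Line A thus held far more of it than line B, and 5 of the 11 genes reached 1 RPKM in line A, against 1 in line B, with 2 listed at 0 in all 4 libraries. Its member KRT5, a basal keratin, had 12.8 and 12.5 RPKM in the pools, against 3.76 and 0.092 RPKM in the lines (difference 2.58, SE 0.66, limma adjusted p = 0.0117), a call lost without either pool (adjusted p up to 0.139). The part of keratinocyte markers in the differences of epithelial genes was not tested. Leaving out line A is no test of that part, since keratinocyte RNA in line A would raise the values of the lines and not those of the pools.

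Differences of more than 2-fold within a group were fewer between the pools than between the lines, whereas the median difference was similar. Among genes averaging 10 RPKM or more within the group, 19 of 2301 (0.826%) differed by more than 2-fold on the log2(RPKM + 1) scale between the pools, 15 higher in pool A and 4 in pool B. Between the lines, 214 of 5073 (4.22%) did so, 95 higher in line A and 119 in line B. The median absolute log2 difference was 0.251 between the pools and 0.231 between the lines. The 2 sets of genes differ, since the cut at 10 RPKM was applied to the deposited values of each group. No test was made within groups of 2. RNASE1, a secreted ribonuclease, had 97.5 RPKM in pool A and 31.8 in pool B, and the claudin CLDN10 had 10.1 and 21.7. In line A, MGP, a matrix protein that blocks calcification, had 84.4 RPKM, against 0.345 in line B. KRT17, a keratin of stratified epithelium, had 36.1 RPKM in line A, against 0.307 in line B. In line B, the collagen COL12A1 had 661 RPKM, against 128 in line A, and INHBA, the activin A subunit, had 57.0, against 5.27.

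**Figure D5:**
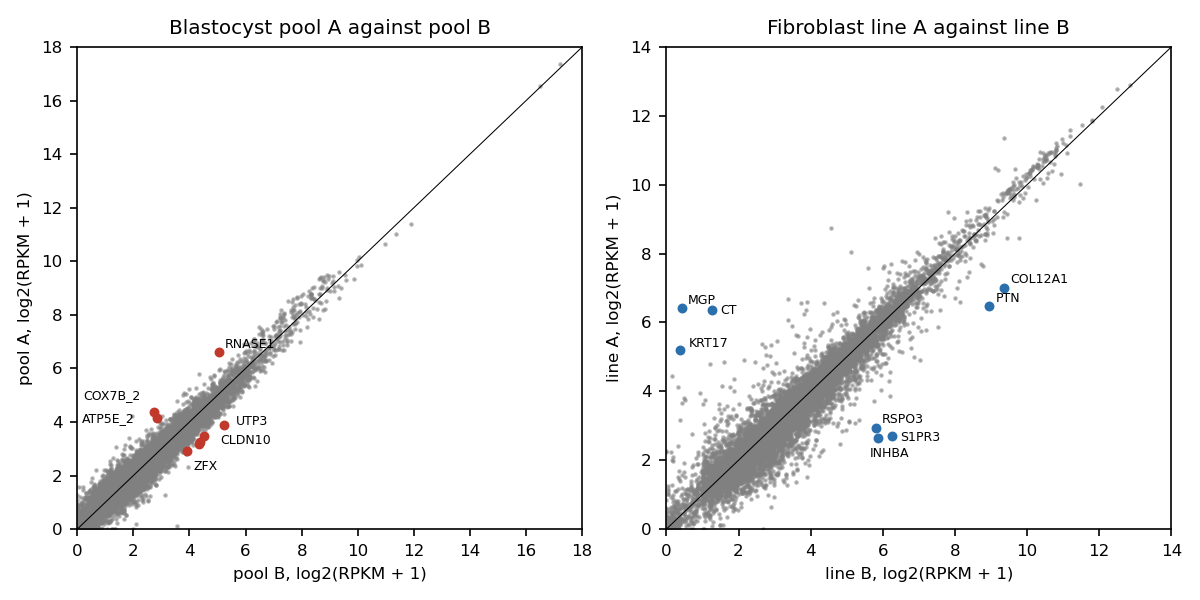
Values of the tested genes as log2(RPKM + 1), blastocyst pool A against pool B (left) and fibroblast line A against line B (right), with the line of equal values. Coloured points are genes with the largest differences within a group, most of them labelled, such as RNASE1 (97.5 and 31.8 RPKM in pools A and B) and MGP (84.4 and 0.345 RPKM in lines A and B).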

How the data were processed

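The authors deposited RPKM values per gene. UMD3.1 and edgeR are named, without role or version, in the submitters' processing notes; aligner and counter: not given in the sources used here. Of 23231 features, 26 with an unreadable name, 25 with a date as name and 21 with a blank value were left out; 14955 of the 23159 used matched a symbol of the RefSeq gene table (assembly ARS-UCD2.0), whose coordinates were not used. The deposited values were taken as log2(RPKM + 1), filtered at 1 RPKM in 2 libraries, and tested with limma 3.58.1 (R 4.3.3; empirical Bayes, mean-variance trend, two-sided) between the 2 groups, with no covariate; Python 3.11.15, pandas 2.3.3 and numpy 2.4.6 did the rest. The fit was tested on simulated data. The 8 later stem cell libraries, in other files, were not used.

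The members and gene lists were chosen with earlier results of these data known. The rule for names takes the 12 largest differences each way among genes with a symbol that were called under both scalings. These genes average 10 RPKM or more in the higher group and have no overlap between groups. In each list it takes up to 5 members of lowest adjusted p among those called under both scalings. It also takes 12 fixed markers, the 8 most abundant features of each group and the 5 largest differences each way within a group. KLF4, TFAP2C, TEAD4, HNF4A, JUP, CDH3, EZR, FN1, SPARC, MMP3, PDGFRA, B2M, PLK1, DNMT1, NDN, LDHA, HK2, SDHA, RPL38, HMGCS1, PLIN2 and GAPDH were named after their values were seen. Alternatives were 2 other scalings, a pseudocount of 0.1, no filter and a filter at 5 RPKM, the P10 stem cell libraries in the fit, a replicate block, and each library left out. Some genes that the rule names are not reported here.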

Additional observations from a re-analysis of the deposited data

How the results depend on the processing

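The counts called higher and lower turned on the scaling: 3255 and 4094 after rescaling without the 2 top features, 3266 and 4155 with median-of-ratios scaling, and 3479 and 3825 with quantile normalization, beside 1234 and 7223 as deposited. The median gene moved to -0.21, -0.20 and -0.08 under these, to -1.76 with a pseudocount of 0.1, to -0.55 without a filter and to -1.64 with at least 5 RPKM, a filter that left 7345 genes tested and 767 higher, as deposited and under both scalings. With each library left out, 854 to 1024 genes were higher, also under both scalings, 6031 to 6185 lower, and 2588 to 3398 lower under both scalings, with the median gene at -1.37 to -1.36; the group left with 1 library is then assumed to vary like the other. Adding the P10 libraries gave 1289 higher and 7457 lower of 11761.

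Of 179 tested genes that the naming rule takes, 171 stayed called or stayed uncalled after rescaling, and 6 gained a call. The rule takes most of these genes only if called under both scalings, so this count was largely fixed in advance. Uncalled genes among the 171 could change sign, as ECHDC1 did (-0.87 as deposited and 0.62 after rescaling). ACTB_2 and RPL10_2, numbered copies of actin and ribosomal protein genes, reversed: ACTB_2 to 0.88, 0.86 and 0.92 and RPL10_2 to 0.72, 0.70 and 0.65 with rescaling, median-of-ratios and quantile scaling. The cause was not tested. Both calls as deposited were lost with any 1 library left out (limma adjusted p up to 0.209 for ACTB_2 and 0.145 for RPL10_2), and the rescaled calls were lost for ACTB_2 without either fibroblast line (up to 0.231) and for RPL10_2 with any 1 library left out (up to 0.262). Outside that rule, JUP, CDH3, EZR, PDGFRA, SDHA, PLIN2 and ITGA5, named after their values were seen, lost their call after rescaling. Leaving out 1 library cost 11 to 18 of the calls of the 179 genes as deposited.

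Whether the letters A and B pair the pools with the lines is not stated in the labels, and they were treated as names only. Deviations of same-letter libraries from their group mean correlated at 0.206 over 10444 genes. In groups of 2 these deviations mirror each other, so the value rests on a single contrast and cannot decide the question. A replicate block on the letter gave 1355 higher and 7453 lower as deposited, and 1355 and 4376 under both scalings.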

Other observations

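Further gene families, picked by symbol after the data were seen, are described by their counts beside 11.8% of all genes higher and 69.2% lower as deposited, and 31.2% and 39.2% after rescaling. All 10 integrins tested fell as deposited and 9 after rescaling (median -3.79 and -3.54). ITGB1, the shared beta chain of many matrix receptors, had 12.0 and 16.1 RPKM in the blastocyst pools, against 385 and 533 RPKM in the fibroblast lines (difference -4.93, limma adjusted p = 3.91e-05). ITGA5, the fibronectin receptor chain, was the member not called after rescaling, with 32.9 and 27.7 RPKM in the pools, against 78.4 and 69.7 RPKM in the lines (-1.27, adjusted p = 0.00115, and 0.27 after rescaling). No integrin tested was called higher in blastocysts under either scaling. Of 11 S100 calcium-binding genes, 2 rose and 7 fell as deposited, and 3 rose and 4 fell after rescaling. S100A11 had 2.11 and 1.48 RPKM in the pools, against 1298 and 1056 RPKM in the lines (-8.72, adjusted p = 9.91e-06), whereas S100A5 had 40.4 and 26.8 RPKM in the pools, against 5.01 and 3.07 RPKM in the lines (2.78, adjusted p = 0.00031). The other member that rose, S100A14, had 157 and 139 RPKM in the pools, against 78.2 and 50.5 RPKM in the lines (1.22, adjusted p = 0.00521), a call lost as deposited without either pool (adjusted p up to 0.0722).

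Of 179 solute carriers tested, 36 rose and 108 fell as deposited, and 61 rose and 72 fell after rescaling (median -1.20 and -0.12). The count higher as deposited was 23 without fibroblast line A. SLC26A4, an anion exchanger, had 7.14 and 9.59 RPKM in the pools and was listed at 0 in both lines (limma adjusted p = 6.68e-05), and SLC7A8, a neutral amino acid exchanger, had 21.3 and 18.6 RPKM in the pools, against 0.091 and 0.553 RPKM in the lines (4.01, adjusted p = 6.35e-05). Proteasome, mitochondrial ribosome and NADH dehydrogenase subunits turned with the scaling. Of 37 proteasome subunits, none rose and 30 fell as deposited, and 15 rose and 7 fell after rescaling. Of 74 mitochondrial ribosomal proteins, 5 rose and 49 fell as deposited, and 32 rose and 10 fell after rescaling. Of 37 NADH dehydrogenase subunits, 2 rose and 25 fell as deposited, and 22 rose and 3 fell after rescaling. Without either fibroblast line, 4 proteasome subunits were higher and 3 lower after rescaling, and 17 mitochondrial ribosomal proteins were higher. The mitochondrial ribosomal proteins lower after rescaling were 1 without line A and 2 without line B, those lower as deposited were 28 without line A, and those higher as deposited were 2 without pool A and 1 with pool B or either line left out. The NADH dehydrogenase subunits higher after rescaling were 8 without line A and 7 without line B, and those lower as deposited were 16 without pool B, 10 without line A and 13 without line B.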
